A study of Mus musculus with 16 samples.

Results

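The genes described here are 9 genes of the developing mouse cerebellum, chosen by name: Pcp2, Calb1, En1, En2, Atoh1, Barhl1, Zic1, Zic2 and Zic4. They are 9 of the 45616 genes and unnamed features on the array, and 14 of its 56605 probes. A gene was tested where 1 of its probes stood well above background in every animal of some group, which left 8 of the 9 genes and 26477 genes and features in all. Brain RNA of 16 C57BL/6 neonates at postnatal day 1 was measured on one-colour arrays, with 4 animals in each of 4 groups. Per the labels, the groups differed in the sperm that had given rise to the animals: fresh sperm, freeze-dried (FD) sperm, FD sperm given 5 Gy of X-rays, and FD sperm held at 95 °C for 1 h. They are called fresh, freeze-dried, irradiated and heated below, and each animal is named by its group and number (heated 2). The animals themselves were not irradiated or heated. The labels give neither sex, litter nor the way the brain was dissected, so p-values measure the spread between these animals.

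The cerebellum forms from the dorsal hindbrain next to the midbrain border. Engrailed and Zic transcription factors pattern that territory. Atoh1 is the transcription factor that starts the granule neuron lineage in the rhombic lip, Barhl1 is a homeobox gene of the same lineage, and Pcp2 and Calb1 mark Purkinje cells, the output neurons of the cerebellar cortex. In mice much of the granule layer is made after birth, so the neonatal cerebellum holds dividing granule precursors. Calb1 and the Zic genes are also expressed in the forebrain and other regions.

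The promoters of Pcp2, Atoh1 and Barhl1 are printed because these were the members with the widest gaps between 2 heated animals and the rest. RefSeq (GRCm38.p6) windows were found for 6 of the 9 genes. Each line holds the 250 bases before an annotated start, 5′ to 3′ on the gene's strand, and capitals mark every match to the searched motifs on either strand. The table held 4 starts for Pcp2, 2 for Barhl1 and 1 for Atoh1, and a single window is shown for each.
Pcp2 (minus strand, chr8:3625548-3625797): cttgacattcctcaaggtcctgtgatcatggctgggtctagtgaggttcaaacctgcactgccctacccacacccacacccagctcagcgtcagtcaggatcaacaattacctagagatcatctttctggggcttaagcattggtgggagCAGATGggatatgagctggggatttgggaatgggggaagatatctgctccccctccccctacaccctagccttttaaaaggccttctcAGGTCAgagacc
Atoh1 (plus strand, chr6:64728875-64729124): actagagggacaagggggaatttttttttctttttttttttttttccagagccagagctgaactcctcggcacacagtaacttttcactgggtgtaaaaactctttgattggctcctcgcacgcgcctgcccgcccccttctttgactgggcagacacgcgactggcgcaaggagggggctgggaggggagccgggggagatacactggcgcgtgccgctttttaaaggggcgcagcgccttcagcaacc
Barhl1 (minus strand, chr2:28916669-28916918, inside the annotated gene): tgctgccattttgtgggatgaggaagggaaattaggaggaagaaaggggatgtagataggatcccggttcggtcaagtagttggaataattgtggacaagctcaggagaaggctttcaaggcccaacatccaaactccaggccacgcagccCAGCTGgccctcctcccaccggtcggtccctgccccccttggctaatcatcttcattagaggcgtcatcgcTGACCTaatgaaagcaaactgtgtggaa
The 4 motifs searched were the E-box CANNTG, which basic helix-loop-helix factors such as ATOH1 bind, the nuclear receptor core AGGTCA, the TATA box TATAAA and the homeodomain core TAATTA. The Pcp2 window held an E-box 100 bases and an AGGTCA 12 bases before the start. Barhl1 held an E-box 99 bases and an AGGTCA, on the opposite strand, 28 bases before its start. The Atoh1 window held none of the 4. An E-box was present in 66.2% of 32851 RefSeq windows of 250 bases, AGGTCA in 14.0%, TATAAA in 12.4% and TAATTA in 4.84%, so a single match is a description of the window only.

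A level is the log2 signal minus the array's 75th percentile over probes, so 0 is that percentile and 1 unit is a 2-fold difference in signal. The brightest kept probe stood for each gene. Levels of different probes cannot be set against each other. A difference was called at a Benjamini-Hochberg adjusted p under 0.05 over all 26477 genes and features (limma, 16 arrays in 1 fit). The arrays lay on 2 slides: fresh 1 and 2, irradiated 1 and 2 and all freeze-dried animals on slide 1, and the others on slide 2. The heated and freeze-dried groups therefore shared no slide.

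Pcp2, which encodes a G-protein modulator of Purkinje cells, was nearly level in 14 animals and low in heated 2 and heated 4. Its levels were 0.86, 0.98, 0.89 and 1.01 in the 4 fresh animals, 1.03, 0.94, 0.96 and 1.03 in the freeze-dried animals and 1.17, 1.10, 0.81 and 0.89 in the irradiated animals. In heated 1 to 4 they were 1.16, -2.55, 1.24 and -3.73. The heated group thus held both the highest value of all 16 animals and the 2 lowest. The processed signal was 144 in heated 2 and 57.6 in heated 4, well above background on both arrays, against 1886 and 2068 in heated 1 and heated 3. Relative to the median of the other 14 animals, Pcp2 was 11.7-fold lower in heated 2 and 26.4-fold lower in heated 4. Heated animals overlapped every other group, and the group difference was not called: -1.96 against freeze-dried (SE 0.83, adjusted p = 0.170), -1.91 against fresh (SE 0.83, adjusted p = 0.243) and, for irradiated minus heated, 1.96 (SE 0.83, adjusted p = 0.307). Without heated 2 and heated 4 the difference from freeze-dried was 0.21 (SE 0.096, adjusted p = 0.304).

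Calb1, the calcium buffer calbindin of Purkinje cells and of many other neurons, did not share this pattern. Its levels were 2.59, 2.76, 2.78 and 2.81 in fresh, 2.76, 2.86, 2.89 and 2.80 in freeze-dried, 3.03, 2.89, 2.87 and 2.81 in irradiated and 2.96, 2.78, 2.92 and 2.70 in heated animals. The 2 lowest animals were fresh 1 and heated 4, and heated 2 lay inside the range of the others. Heated minus freeze-dried was 0.015 (SE 0.073, 95% interval -0.14 to 0.17, adjusted p = 0.920), a sign that turned without scaling between arrays (-0.12). Irradiated animals were above all fresh animals, but the lowest irradiated animal (2.807) and the highest fresh animal (2.806) nearly touched. The mean difference was 0.16 (SE 0.073, adjusted p = 0.269), which was not called. Groups did not overlap for 9.09% of all features in that comparison. There, the second, dimmer Calb1 probe differed by 0.074 (SE 0.098, adjusted p over probes = 0.759), and the groups overlapped.

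**Figure D1:**
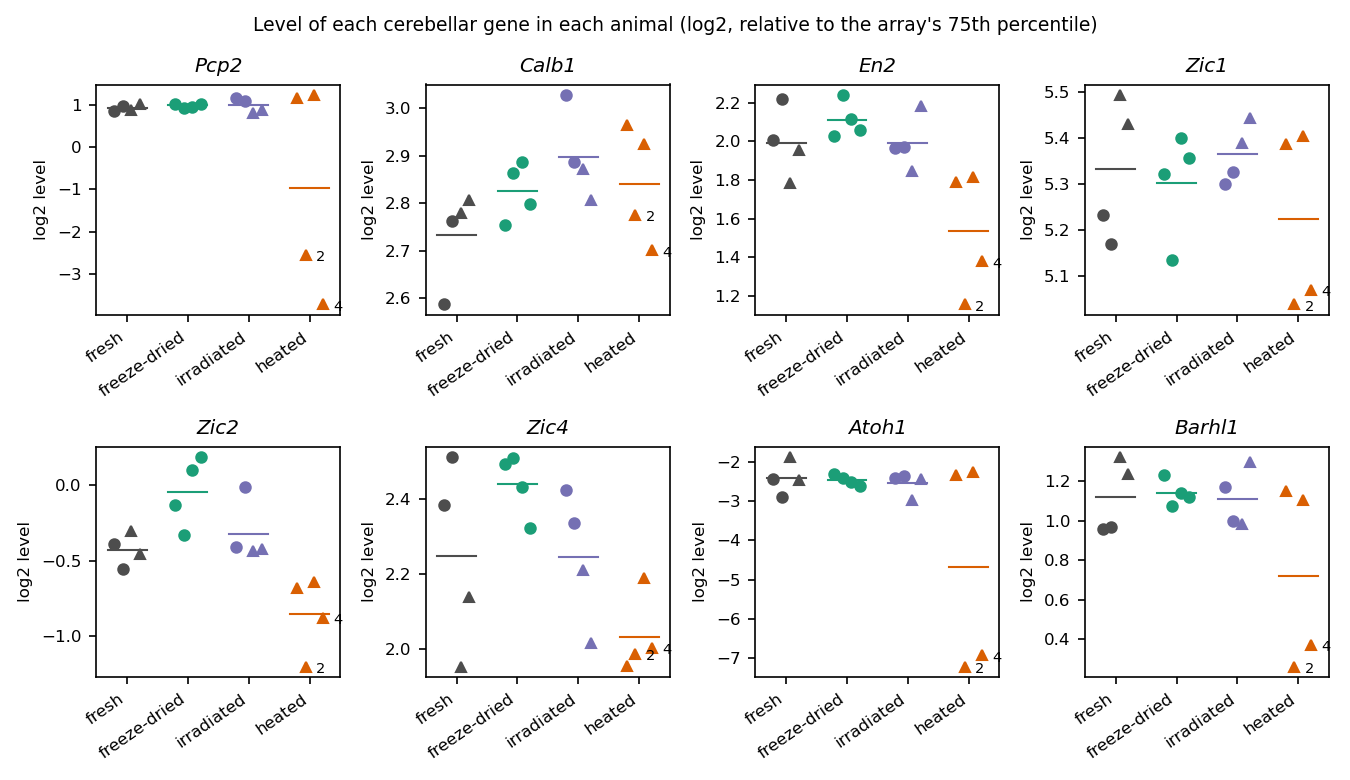
Level of the 8 tested genes in each animal (y axis: log2 signal relative to the array's 75th percentile, with its own scale in each panel). Circles are slide 1, triangles slide 2, lines group means, and the numbers mark heated 2 and heated 4, which were the 2 lowest of 16 animals for Pcp2, En2, Zic1, Zic2, Atoh1 and Barhl1.

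Atoh1 separated the same pair of animals. It measured -2.44, -2.89, -1.88 and -2.45 in fresh, -2.29, -2.40, -2.51 and -2.61 in freeze-dried, and -2.40, -2.36, -2.97 and -2.44 in irradiated animals. Heated 1 and heated 3 were at -2.33 and -2.27, inside that range. In heated 2 and heated 4 the probe was not well above background, at -7.22 and -6.93, while it was well above background in the other 14 animals. These values are therefore bounds on a low level. The heated group was measured in 2 of 4 animals, and its mean difference was not called: -2.23 from freeze-dried (SE 0.91, adjusted p = 0.156), -2.27 from fresh (SE 0.91, adjusted p = 0.204) and, for irradiated minus heated, 2.14 (SE 0.91, adjusted p = 0.309). Without heated 2 and heated 4, heated minus freeze-dried was 0.15 (SE 0.23, adjusted p = 0.753).

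Barhl1 was lower in both animals by a smaller amount. Fresh animals were at 0.96, 0.97, 1.32 and 1.23, freeze-dried animals at 1.23, 1.08, 1.14 and 1.12, and irradiated animals at 1.17, 1.00, 0.98 and 1.30. Heated 1 to 4 were at 1.15, 0.26, 1.10 and 0.37. Heated 2 was 1.82-fold and heated 4 1.69-fold under the median of the other 14 animals. With this probe, which stood for the gene, heated minus freeze-dried was -0.42 (SE 0.18, adjusted p = 0.166) and heated minus fresh -0.40 (SE 0.18, adjusted p = 0.251). The second, dimmer Barhl1 probe gave another call. In the same model fitted over all 34261 kept probes by limma, it was lower in heated than in freeze-dried animals by a difference of -0.50 (SE 0.11, adjusted p = 0.0280) and than in fresh animals by -0.50 (SE 0.11, adjusted p = 0.0298). On that probe heated 1 to 4 were at -0.28, -0.64, -0.27 and -0.75, and the other 12 animals lay between -0.35 and 0.12. Without heated 2 and heated 4 the probe was no longer called (-0.29, SE 0.099, adjusted p = 0.218 against freeze-dried), nor with slide as a fixed block (adjusted p = 0.606 against freeze-dried and 0.107 against fresh).

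Among the midbrain and hindbrain patterning genes, En2 gave a call and En1 could not be tested. En1 was well above background in fresh 4 alone (-4.80), 1 of 16 arrays, and its readings in the other animals, -7.24 to -5.29, carry no order. En2 was at 2.01, 2.22, 1.79 and 1.96 in fresh, 2.03, 2.24, 2.11 and 2.06 in freeze-dried and 1.97, 1.97, 1.85 and 2.18 in irradiated animals. Heated 1 to 4 were at 1.79, 1.16, 1.82 and 1.38. Heated 2 was 1.78-fold and heated 4 1.53-fold under the median of the others, and all 4 heated animals lay below all 4 freeze-dried animals. The En2 difference was -0.57 (SE 0.14, adjusted p = 0.0360). It was not called against fresh (-0.46, SE 0.14, adjusted p = 0.0909), where the groups overlapped, nor for irradiated minus heated (0.46, SE 0.14, adjusted p = 0.135). The call was lost without heated 2 and heated 4 (-0.31, SE 0.12, adjusted p = 0.250), without either of them alone (adjusted p = 0.0956 and 0.0957), and without any single freeze-dried animal (adjusted p = 0.0547 to 0.101). With slide as a block it was -0.48 (SE 0.20, adjusted p = 0.555), and against fresh animals on slide 2 alone -0.34 (SE 0.21, adjusted p = 0.515). With that block limma called 0 of all genes and features in heated minus freeze-dried.

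The Zic genes encode zinc finger factors of granule precursors, meninges and other dorsal cells. Zic2 was at -0.39, -0.55, -0.31 and -0.46 in fresh, -0.13, -0.33, 0.10 and 0.18 in freeze-dried and -0.41, -0.017, -0.44 and -0.42 in irradiated animals. Heated 1 to 4 were at -0.68, -1.20, -0.64 and -0.88. On this probe, which stood for the gene, all 4 heated animals were thus below the other 12 animals. Zic2 was lower in heated than in freeze-dried animals (-0.81, SE 0.14, adjusted p = 0.0111), but was not called against fresh (-0.42, SE 0.14, adjusted p = 0.122) or for irradiated minus heated (0.53, SE 0.14, adjusted p = 0.0892). The call against freeze-dried held on leaving out each of the 16 animals in turn. It did not hold without heated 2 and heated 4 together (-0.62, SE 0.15, adjusted p = 0.154) or with slide as a block (-0.74, SE 0.20, adjusted p = 0.276). With that block limma called 0 of all genes and features in heated minus freeze-dried. Within slide 2, heated minus fresh was -0.47 (SE 0.15, adjusted p = 0.268). The second, dimmer Zic2 probe differed by -0.35 in heated minus freeze-dried (limma, SE 0.16, adjusted p over probes = 0.200). In heated minus fresh it differed by -0.26 (limma, SE 0.16, adjusted p over probes = 0.414). On that probe heated 1 to 4 were at -1.46, -1.84, -1.34 and -1.39. The other 12 animals lay between -1.61 and -0.88, so the groups overlapped.

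Zic1 was bright and varied little: 5.23, 5.17, 5.49 and 5.43 in fresh, 5.32, 5.13, 5.40 and 5.36 in freeze-dried and 5.30, 5.33, 5.39 and 5.44 in irradiated animals. Heated 1 to 4 were at 5.39, 5.04, 5.41 and 5.07, so heated 2 and heated 4 were again the 2 lowest, 1.26-fold and 1.23-fold under the median of the others. Heated minus freeze-dried was -0.078 (SE 0.10, 95% interval -0.29 to 0.13, adjusted p = 0.669). Zic4 had another order, at 2.38, 2.51, 1.95 and 2.14 in fresh, 2.49, 2.51, 2.43 and 2.32 in freeze-dried, 2.42, 2.34, 2.21 and 2.01 in irradiated and 1.95, 1.99, 2.19 and 2.00 in heated animals. Its 2 lowest animals were fresh 3 and heated 1. All heated animals were below all freeze-dried animals, by a mean of -0.41 (SE 0.11, adjusted p = 0.0621). The difference was -0.072 with slide as a fixed block (SE 0.10, adjusted p = 0.941) and -0.27 with slide as a random block (SE 0.12, adjusted p = 0.393). On slide 1 the fresh animals averaged 2.45 and on slide 2 they averaged 2.04, and the irradiated animals 2.38 and 2.11. The second Zic4 probe, annotated to another transcript, differed by -0.038 in heated minus freeze-dried (SE 0.14, adjusted p over probes = 0.899). Zic1 and Zic4 lie head to head on chromosome 9 and their annotated spans overlap by 138 bases.

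Of the 8 tested genes, 2 fell in heated against freeze-dried animals, where 3.86% of all genes and features were called, 1.36% as lower. Without heated 2 and heated 4, 0 of the 8 (limma) and 4 of all genes and features were called. With slide as a fixed block limma called 0 of all genes and features, and with a random block 41. With all 4 heated animals in the fit, the median difference of the 8 was -0.50, against 0.018 over all genes and features. For 3 of the 8 (En2, Zic2 and Zic4) the groups did not overlap, against 20.3% of all features, and 6 of the 8 had an unadjusted p under 0.05, against 23.8% of all. In heated minus fresh, 0 of 8 passed (limma; 5 had an unadjusted p under 0.05, against 17.9% of all) where 2.93% of all were called, and their median was -0.41 against 0.032 over all. Groups did not overlap for 1 of the 8, Zic2, against 11.3% of all features. In irradiated minus heated, 0 of 8 passed (limma; 5 had an unadjusted p under 0.05, against 13.8% of all) where 1.01% of all were called. Groups did not overlap there for 2 of the 8, En2 and Zic2, against 13.1% of all features. These 3 comparisons share the heated animals. The largest difference between freeze-dried and fresh was that of Zic2 (0.38, SE 0.14, adjusted p = 0.436), and between irradiated and freeze-dried again Zic2 (-0.28, SE 0.14, adjusted p = 0.699). No member passed in either, where limma called 0 of 26477 (0%), with an unadjusted p under 0.05 for 9.93% and 7.22% of all features. In irradiated minus fresh, 0 of 8 members (limma; 1 with an unadjusted p under 0.05, against 16.9% of all) and 1.37% of all were called.

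**Figure D2:**
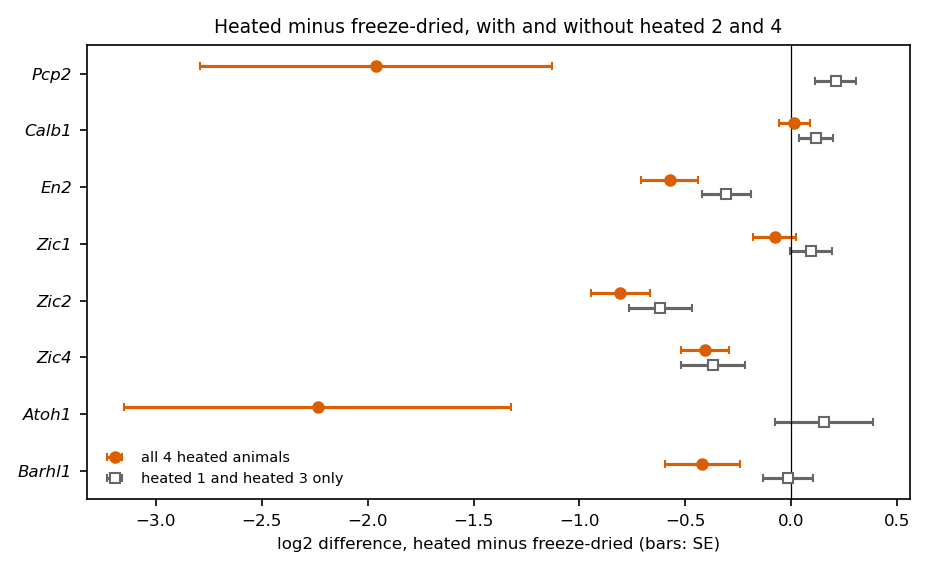
Difference of heated minus freeze-dried animals for the 8 tested genes (x axis: log2; bars: SE), with all 4 heated animals (filled circles) and with heated 1 and heated 3 alone (open squares). Pcp2 moves from -1.96 to 0.21, Atoh1 from -2.23 to 0.15, Zic1 from -0.078 to 0.093 and Barhl1 from -0.42 to -0.015 (SE 0.12). En2 (-0.31), Zic2 (-0.62) and Zic4 (-0.37) stay below 0, and Calb1 moves from 0.015 to 0.12.

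Heated 2 and heated 4 were the 2 lowest of 16 animals for 6 of the 8 tested genes, and for 1.84% of 26450 features with a value on every array. That pair was picked from the levels themselves, so this is a description. Both read at least 1 log2 unit under the lowest other animal for 14 features (0.0529%), a limit chosen after the values were seen. Pcp2, Pax2, Skor1 and Tfap2a were among these and well above background in all 16 animals, with gaps of 3.36, 1.67, 1.56 and 1.30. Atoh1, Skor2, Hoxa2 and Arhgef33 were among them too but not well above background in heated 2 or heated 4, nor was Hoxa2 in fresh 2. With each reading raised to its array's lowest level well above background, the Atoh1 gap was at least 2.05, while those of Skor2 and Arhgef33 were at least 0.66 and 0.69 and Hoxa2 showed none. By profile over the 16 animals (smallest root mean square difference of centred log2 levels), the gene most like Pcp2 was Atoh1, at 0.38, followed by Pax2 at 0.59, Skor1 at 0.69, Skor2 at 0.71 and Arhgef33 at 0.83. Those most like Atoh1 were Pcp2, then Pax2 at 0.62, Skor1 at 0.70, Skor2 at 0.72 and Hoxa2 at 0.80. Distances to Atoh1, Skor2, Hoxa2 and Arhgef33 rest in part on readings that are only bounds. With the raised readings, the profiles nearest to Pcp2 were Atoh1 (0.51), Pax2 (0.59), Skor1 (0.69), Tfap2a (0.83) and Lamp5 (0.85), and those nearest to Atoh1 were Pax2 (0.40), Tfap2a (0.41), Skor1 (0.42), Sncg (0.45) and Pcp2 (0.51). Pax2 is a transcription factor of the midbrain-hindbrain border and of cerebellar interneuron precursors, and SKOR2 is a nuclear corepressor of Purkinje cells.

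Other genes of the cerebellum were read from lists of their markers. Of 10 tested granule and rhombic lip genes, heated 2 and heated 4 were the 2 lowest animals for 7: Zic5, Pax6, Neurod1, Lmx1a, Meis1, Nhlh1 and Uncx. The 10 genes' summed linear level, relative to the 75th percentile, was 22.3 in heated 2 and 24.1 in heated 4 and lay between 28.6 and 36.0 in the other 14 animals. The median difference of heated minus freeze-dried over these 10 was -0.27, with 10 below 0 and 0 called by limma, against 3.86% of all genes and features, and 5 had an unadjusted p under 0.05, against 23.8% of all. Against fresh, Uncx, a homeobox gene, was lower (-0.56, SE 0.14, adjusted p = 0.0459) and lost its call without heated 2 and heated 4 (-0.22, SE 0.067, adjusted p = 0.213). With slide as a fixed or a random block it was -0.60 and -0.58 (adjusted p = 0.0931 and 0.0579).

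Purkinje markers were mixed. Of 16 tested, 5 had their 2 lowest values in heated 2 and heated 4: Car8, Skor2, Lhx1, Lhx5 and Ebf2. The summed level of the 16 was 65.8 in heated 2 and 67.0 in heated 4, but 74.6 in heated 1 and 73.8 in heated 3. It was 65.5 to 71.9 in fresh animals, a range that also held the freeze-dried and irradiated animals. The median difference of heated minus freeze-dried over the 16 genes was -0.030. In that comparison limma called 1 of the 16 as higher and 1 as lower, against 3.86% of all genes and features called. An unadjusted p under 0.05 was found for 6 of the 16, against 23.8% of all. Ebf2, a transcription factor of a subset of Purkinje cells, was lower in heated than in freeze-dried animals (-0.82, SE 0.16, adjusted p = 0.0155). Itpr1, the calcium release channel abundant in Purkinje cells and present in other neurons, was higher (0.24, SE 0.054, adjusted p = 0.0311). Without heated 2 and heated 4 neither was called, at -0.45 (SE 0.072, adjusted p = 0.0740) and 0.25 (SE 0.071, adjusted p = 0.183). Slide as a block left both differences near their size, at -0.82 and 0.24, but neither was called (Ebf2 adjusted p = 0.303 with a fixed and 0.0894 with a random block, Itpr1 0.368 and 0.135). In heated minus freeze-dried, the fixed block left 0 and the random block 41 of all genes and features called. Of 8 isthmus genes, 3 (Pax2, Pax8 and Gbx2) were lowest in the pair, and limma called 0 of the 8, 1 of which had an unadjusted p under 0.05. None of the 8 Hedgehog response genes, which report the signal that drives granule precursor division, was lowest in the pair, and limma called 0 of them, with 2 at an unadjusted p under 0.05. Both counts can be read against the 3.86% called and the 23.8% at an unadjusted p under 0.05 among all genes and features. In bulk RNA, fewer cells of a type and less RNA per cell cannot be told apart.

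**Figure D3:**
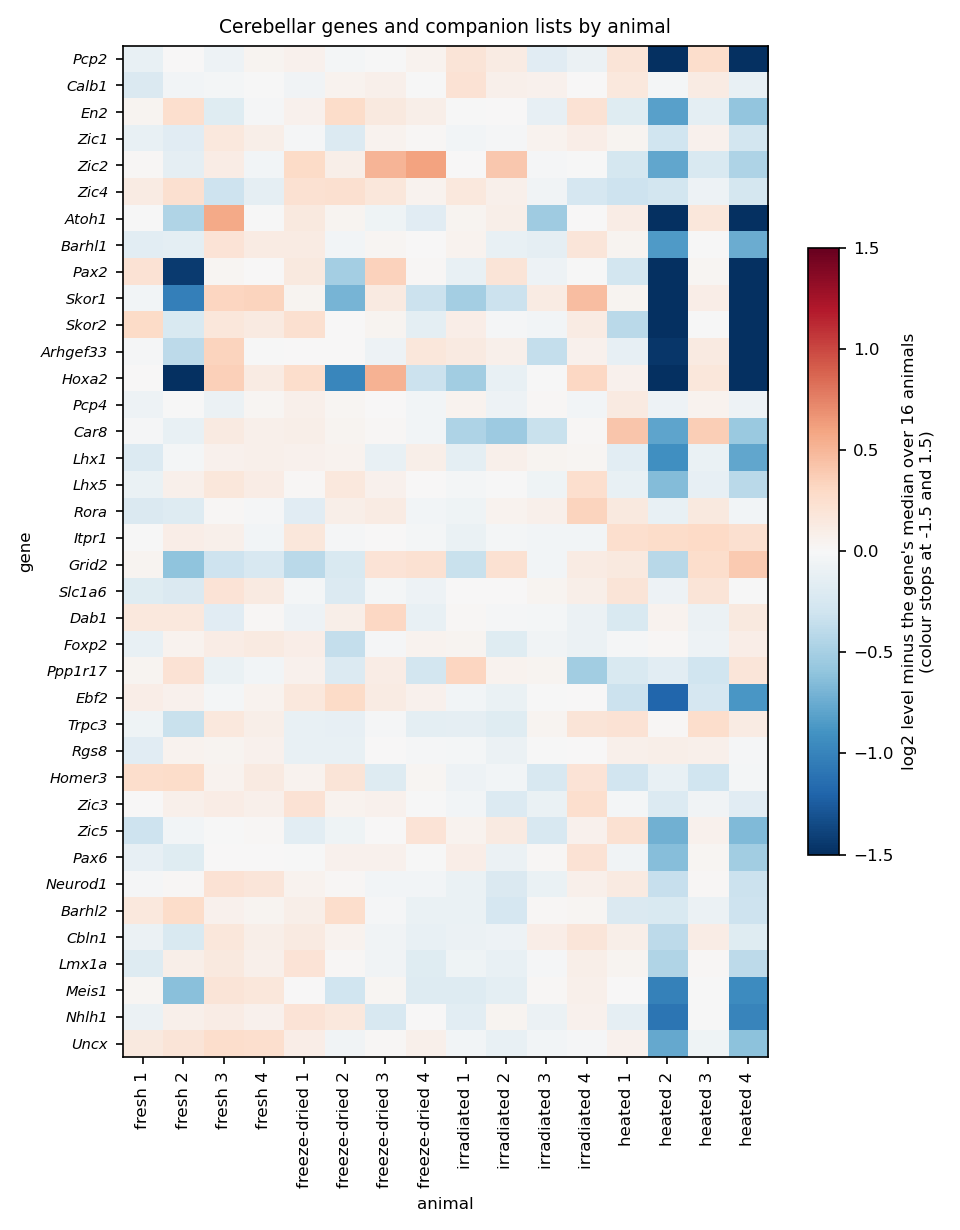
Level of the tested members, of their nearest profiles and of the Purkinje and granule list genes (rows) in the 16 animals (columns), as log2 level minus the gene's median over the animals, with the colour stopping at -1.5 and 1.5. The columns of heated 2 and heated 4 hold most of the dark blue cells, some of which (Atoh1, Skor2, Hoxa2 and Arhgef33) are readings not well above background, and Hoxa2, Pax2 and Skor1 are also low in fresh 2 and freeze-dried 2.

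Lists of other regions showed no single pattern in the same pair. Heated 2 and heated 4 were the 2 lowest animals for 1 of 12 tested Hox genes, 2 of 13 midbrain genes and 0 of 13 forebrain genes. The Hox count ranks readings that, as for Hoxb5, were often not well above background, so it does not measure their drop. Except for Hoxb3 (1.01-fold and 1.18-fold), the tested Hox genes read 9.24-fold to 362-fold under the median of the other 14 animals in the pair. Those readings lay under the array's lowest level well above background, -5.03 in heated 2 and -5.52 in heated 4. The folds therefore do not measure the size of the drop either. Of the 23 listed Hox genes of hindbrain and spinal cord, 12 were tested, and 3 (Hoxc8, Hoxc9 and Hoxd9) were not well above background on any array. Their summed level was 0.24 in heated 2 and 0.16 in heated 4, but it was also 0.19 in fresh 2 and 1.00 in freeze-dried 2, against 2.57 to 9.94 in the other 12 animals. Hoxb5 was not well above background in heated 2, heated 4, fresh 2 and freeze-dried 2, whose readings of -7.75 to -6.05 carry no order, and it was well above background in the other 12 animals. Pcp2 in fresh 2 (0.98) and freeze-dried 2 (0.94) was nevertheless inside the range of the other animals, as were Atoh1 (-2.89 and -2.40) and Barhl1 (0.97 and 1.08). The summed level of 13 forebrain genes was 112.7 in heated 2 and 114.6 in heated 4, above the 89.2 to 110.9 of the others. From the lists of other regions and cell types, Otx2, Otos, Gata2 and Foxa2 were lower and Nr4a2 and Syt1 higher in heated than in freeze-dried animals (limma, adjusted p = 0.0110 to 0.0387). Of 13 tested midbrain genes, 1 rose and 2 fell. The choroid plexus (10 tested), inner ear (4) and general neuron (8) lists gave 1 call each. None was called in the forebrain, Hox, meninges, retina and lens, pituitary or skin and muscle lists. Over all genes and features 3.86% were called. Of the midbrain genes, 6 had an unadjusted p under 0.05 (limma), against 23.8% of all, and their median difference was -0.23. All 6 calls were lost with slide as a fixed block (adjusted p = 0.365 to 0.615, 0 of all genes and features called) and as a random block (0.0836 to 0.199, 41 called). They were also lost without heated 2 and heated 4 (adjusted p = 0.132 to 0.207), in a fit with fewer animals in which the differences for Otx2 (-0.43 with all 4 and -0.43 without the pair) and Foxa2 (-0.32 and -0.33) kept their size. Those for Otos (-0.93 and -0.75), Gata2 (-0.50 and -0.37), Nr4a2 (0.46 and 0.31) and Syt1 (0.29 and 0.24) became smaller. The part of these regional differences in the levels of the 9 genes was not tested.

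**Figure D4:**
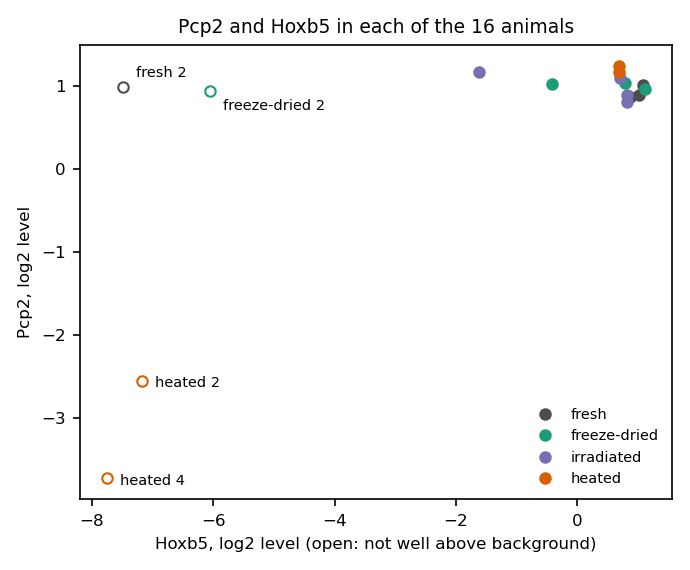
Pcp2 level (y axis, log2) against Hoxb5 level (x axis, log2) in the 16 animals, coloured by group. Open circles mark the 4 animals in which Hoxb5 was not well above background, of which fresh 2 and freeze-dried 2 keep a Pcp2 level near 1 and heated 2 and heated 4 lie at -2.55 and -3.73.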

How the data were processed

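Brain RNA of 16 neonates was labelled with Cy3 and hybridised to Agilent one-colour arrays of 62976 spots, 3671 of them controls. Per the submitters' processing notes, the image software was Agilent Feature Extraction, version 11.0.1.1. The deposited scanner files give each spot's processed signal intensity, already background-corrected per the file headers. The authors' deposited value table holds log2 values of 31313 probes, with column medians of 9.33 to 9.35; how it was scaled is not given in the sources used here.

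From the intensities, spots flagged as outliers were left out, the log2 values of a probe's spots were averaged, and each array was scaled to its 75th percentile. Probes were named through RefSeq accessions, the brightest kept probe stood for a gene, and groups were compared with limma 3.58.1 in R 4.3.3 (lmFit and eBayes, 4 group means, two-sided, Benjamini-Hochberg), checked on simulated data. Taking the percentile over probes, and keeping probes with a missing value, were settled after the members' levels had been seen under the percentile over spots; that first setting is kept as an alternative. The members and marker lists were chosen with earlier results of these data known. Beside the members, the genes named are called list genes and the 5 profiles nearest to each member with an SD over 0.5. Slides were read from the scanner files. Replicate numbers gave no clear pairing of the animals. The number of arrays limits precision. Not every feature that met a stated rule is named here.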

Additional observations from a re-analysis of the deposited data

Results flagged for a closer look

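Within groups of 4, a single animal stood apart from the other 3 by more than Dixon's 95% critical value for 2 of the 32 gene and group combinations, where chance gives about 1 in 20. Zic2 in irradiated 2 was at -0.017, with the other irradiated animals between -0.44 and -0.41. Atoh1 in irradiated 3 was at -2.97, with the others between -2.44 and -2.36. The third Zic4 probe, which was too dim to be tested, was well above background in 4 arrays outside the fresh group (3 freeze-dried and 1 heated) and in 0 fresh arrays. The heated group was not singled out by this measure for Pcp2 or Atoh1, since its low values came as a pair.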

How the results depend on the processing

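In heated minus freeze-dried, the count of called members was 2 and became 0 with slide as a fixed or a random block, with the mean of 4 Y-linked genes as a covariate, in the authors' deposited table (which holds 7 of the 9 genes, without Atoh1 and En1), without heated 2 and heated 4, and without fresh 2, freeze-dried 2, heated 2 and heated 4. The member count was 1 with no filter on dim probes, with no scaling between arrays and with the replicate block (limma, En2 adjusted p = 0.0548). Over all genes and features those 3 settings called 609, 60 and 1238. On leaving out each animal the member count was 1 to 3, where 181 to 1554 of all were called. In the other 5 comparisons it stayed 0 in every setting run. Same-numbered animals of different groups correlated at -0.387 to 0.383 (median 0.0285, 10 of 24 pairs over 0.1). Differently numbered animals correlated at -0.508 to 0.553 (median -0.0188, 23 of 72). Of 891 alternative values for the 29 member differences, 825 kept direction and side of the threshold, 4 gained a call and 27 changed sign. Most differences had no call. All 35 lost calls were in En2 (15 kept), Zic2 (25) and the second Barhl1 probe (13 against freeze-dried, 14 against fresh). For called companion genes, 272 of 535 values lost the call and 0 changed sign.

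Without heated 2 and heated 4, heated minus freeze-dried turned to 0.21 for Pcp2, 0.15 for Atoh1 and 0.093 for Zic1, heated minus fresh to 0.26, 0.12 and 0.064 and to 0.0065 for Barhl1, and irradiated minus heated to -0.21, -0.24 and -0.031, to -0.016 for Barhl1 and to -0.046 for Calb1. Without fresh 2 and freeze-dried 2 as well, heated minus freeze-dried turned to 0.19 for Pcp2, 0.17 for Atoh1 and 0.036 for Zic1. Heated minus fresh turned to 0.28 for Pcp2 and 0.0098 for Zic1, and irradiated minus heated to the values above. Calb1 in heated minus freeze-dried also turned to -0.12 with no scaling, and to -0.0080, -0.026 and -0.012 without freeze-dried 1, heated 1 and heated 3 (-0.026 to 0.062 over the leave-one-out fits), and in irradiated minus heated to -0.0017 within slide 2. The cause of these turns, beyond the animals left out, was not tested. No scaling moved the median of all genes in heated minus freeze-dried from 0.018 to -0.12 and in freeze-dried minus fresh from 0.018 to 0.14.

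Zic4 in heated minus freeze-dried gained a call with normexp background (adjusted p = 0.0497), with only those groups in the fit (0.0210) and without fresh 2 or fresh 3 (0.0388 and 0.0368); over its leave-one-out fits the adjusted p was 0.0368 to 0.148, and with slide as a fixed or a random block it was 0.941 and 0.393. The second Barhl1 probe kept its call against freeze-dried in 12 of 16 such fits. Normexp used the median signal, since the scanner files used here hold no mean signal. The percentile over spots, an alternative added after the data had been seen, lowered all levels by 0.53 to 0.57 and left 2 called members (Zic2 adjusted p = 0.0118, En2 0.0360). No within-slide value exists for heated minus freeze-dried. Raising readings to each array's lowest level well above background, also added after the data had been seen, replaced Skor2, Arhgef33 and Hoxa2 among the profiles nearest to Pcp2 and Atoh1. Atoh1 in heated 2 and heated 4 and En1 in 15 arrays were limited by signal over background.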
